A study of Arabidopsis thaliana with 12 samples.

Results

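The genes described here were at least 2-fold lower in lba1 and at least 2-fold higher in lba1 upf3-1, each against untreated wild type (WT). They are 137 of the 14079 Arabidopsis thaliana genes that averaged 5 RPKM or more across the 6 deposited columns, and the file lists 33602 loci. RPKM is a read count scaled to gene length and to the total of the column. A gene entered the set when its difference on the log2(RPKM + 0.5) scale was −1 or less for lba1 minus WT and 1 or more for lba1 upf3-1 minus WT. The genes were thus chosen by those 2 differences, which are given below as a description only, while upf3-1, mock and cycloheximide (CHX) were not used by either difference.

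All plants were Columbia seedlings of 11 days grown under continuous light with 2% sucrose. The lba1 plants carry a point mutation in UPF1 and are labelled upf1-/-, the upf3-1 plants are labelled upf3-/-, and lba1 upf3-1 plants carry both mutations. Wild type seedlings were also kept for 4 h in liquid medium with cycloheximide at 10 µg/ml (CHX) or without it (mock), and WT seedlings were left untreated. Each mutant is represented by 1 allele per gene, and each group by 2 libraries of whole seedlings. The 12 libraries reach the file as 1 column per group, so no spread between replicates can be computed and no test was possible. "Higher" and "lower" below mean a difference of at least 2-fold on the log2(RPKM + 0.5) scale, which is a rule of size and understates the difference of genes with low values. A value after ± is the 95% half-width from counting error alone.

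Nonsense-mediated decay (NMD) degrades mRNAs on which translation stops too early, and it needs the RNA helicase UPF1, its partners UPF2 and UPF3, and ongoing translation, which cycloheximide blocks. In Arabidopsis, plants with impaired NMD are known for activated immune responses that involve salicylic acid, the hormone of defence against biotrophic pathogens. Its synthesis is switched on by the transcription factors SARD1 and CBP60g, it is sensed by NPR1 and related receptors, and the secreted PR proteins are its classical outputs. WRKY transcription factors act at several steps of this pathway and bind W-boxes, promoter elements with the core TTGAC.

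The columns were of similar depth, 83.1 to 91.5 M reads by the steps of low values at transfer RNA loci, so that a gene of 1 kb at 5 RPKM rests on 416 to 457 reads. UPF3 was at 4.82 RPKM in lba1 upf3-1 and 4.95 in upf3-1, against 13.1 in WT, while the UPF1 level does not check a point mutation. The 11 leaf photosynthesis genes used as tissue markers summed to 908 RPKM in lba1 upf3-1, 28262 in lba1 and 29566 in upf3-1, against 32923 in WT. Their sum was 3917 RPKM with CHX and 12863 in mock, and none was at 0 in any column. The 9 root markers summed to 7.13 RPKM in lba1 upf3-1, 38 in lba1 and 27.1 in upf3-1, against 20.3 in WT, and none was at 0. Only 1 of these 9 reached the mean of 5 RPKM, and the lowest was at 0.023 RPKM in lba1 upf3-1 and 0.372 in WT. In whole seedlings fewer cells of a type and less RNA per cell cannot be told apart, and the part of these shifts in the results below was not tested.

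The 137 genes were expressed weakly in lba1 and strongly in lba1 upf3-1. Their median was 1.46 RPKM in lba1, 56.4 in lba1 upf3-1 and 8.15 in upf3-1, against 4.90 in WT, and it was 31.6 with CHX against 14.5 in mock. They made up 0.132% of all summed RPKM in lba1, 6.64% in lba1 upf3-1, 0.525% in upf3-1, 6.30% with CHX, 1.48% in mock and 0.400% in WT. In lba1 no gene of the set exceeded 100 RPKM, against 42 in lba1 upf3-1, 45 with CHX, 19 in mock and 5 each in upf3-1 and WT. The median differences by which they were chosen were −1.41 for lba1 minus WT and 3.17 for lba1 upf3-1 minus WT, with 1.93% of all described genes lower in lba1 and 22.1% higher in lba1 upf3-1. The set holds 50.4% of the 272 genes lower in lba1 and 4.41% of the 3105 genes higher in lba1 upf3-1. A further 57 genes were lower in both mutants.

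**Figure D1:**
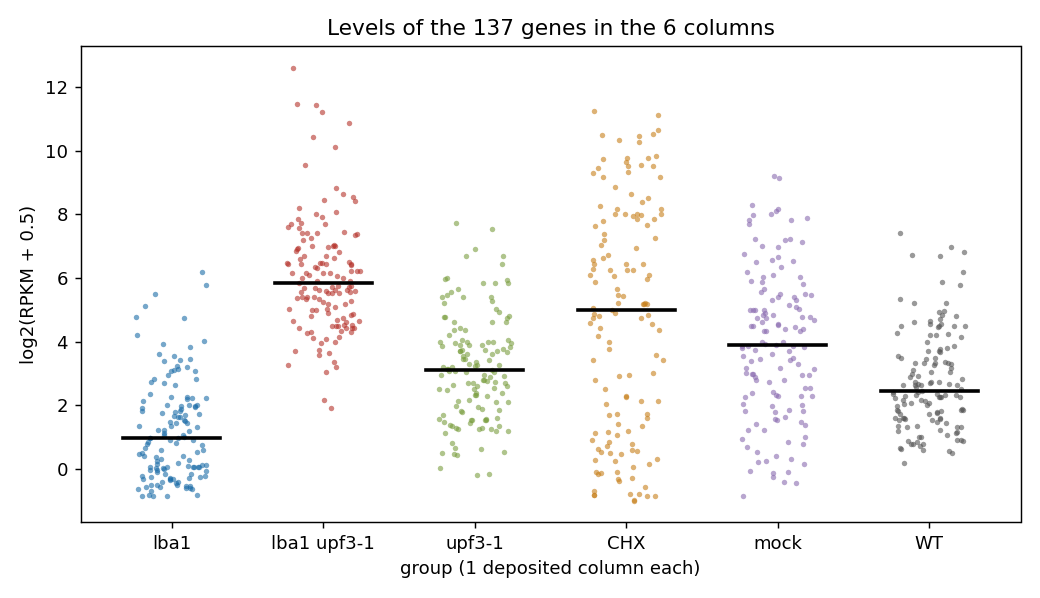
Level of each of the 137 genes in the 6 deposited columns, on the log2(RPKM + 0.5) scale, with 1 point per gene and a black line at the median. By the choice of genes each lba1 point lies below its WT point and each lba1 upf3-1 point above it, and the CHX points spread most widely, from 0 to 2460 RPKM.

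PR1, the best known marker of salicylic acid responses, had the largest gap between lba1 and lba1 upf3-1 and was the most abundant gene of the set. It was at 0.922 RPKM in lba1, 6294 in lba1 upf3-1, 56.4 in upf3-1, 0.047 with CHX, 1.40 in mock and 113 in WT. GSTU3, a tau class glutathione transferase, was at 0.057 RPKM in lba1, 292 in lba1 upf3-1, 1.87 in upf3-1, 3.65 with CHX, 1.2 in mock and 1.32 in WT. Its lba1 value rests on 5 reads, and 12 of the 137 genes had fewer than 20 reads in lba1. The genes nearest to the lba1 threshold from inside were NIT4 (−1.0), CYP82C2 (−1.01) and AT1G33030 (−1.01), and those from outside were AT2G18690 (−0.99), AZI1 (−0.98) and JAZ1 (−0.97). At the lba1 upf3-1 threshold RING1 (1.01), AT3G04640 (1.02) and AT4G08555 (1.06) lay inside, and ChlAKR (0.99), PAP17 (0.99) and AT5G03350 (0.96) outside. In all 151 loci met both differences, and 14 of them fell below the mean of 5 RPKM. Only 68 of the 137 reached 5 RPKM in WT, and 93 would reach the mean of 5 RPKM without the lba1 upf3-1 and CHX columns, so the others passed only through those columns.

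The share of genes with a W-box core upstream was larger in the set than among genes at large. Within 250 bases before the annotated gene start, 89 of 137 genes (65.0%) held TTGAC on either strand, against 45.2% of the 14012 described genes with such a window and 44.5% of all 32834. At least 2 cores were held by 29.2% of the set, against 14.9% of described genes. The W-box with a C at its end (TTGACC) was in 16.1% against 12.4%, and that with a T (TTGACT) in 31.4% against 19.3%. Both contain the core and are not separate evidence.

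Other motifs were compared in the same windows. TGACG, the core bound by TGA factors that act with NPR1, was in 30.7% against 19.6%, and it can share bases with the W-box core. The GCC box of ethylene response factors, GCCGCC, was in 5.11% against 2.05%, and ACGCGT, bound by the calmodulin-binding CAMTA factors, in 5.11% against 2.20%. CACGTG, the G-box, was in 6.57% against 7.68%, the evening element AAAATATCT in 4.38% against 2.58%, and the phosphate element GNATATNC in 8.76% against 5.57%. A match is a run of letters and no proof of binding, and no test was made of these shares.

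**Figure D2:**
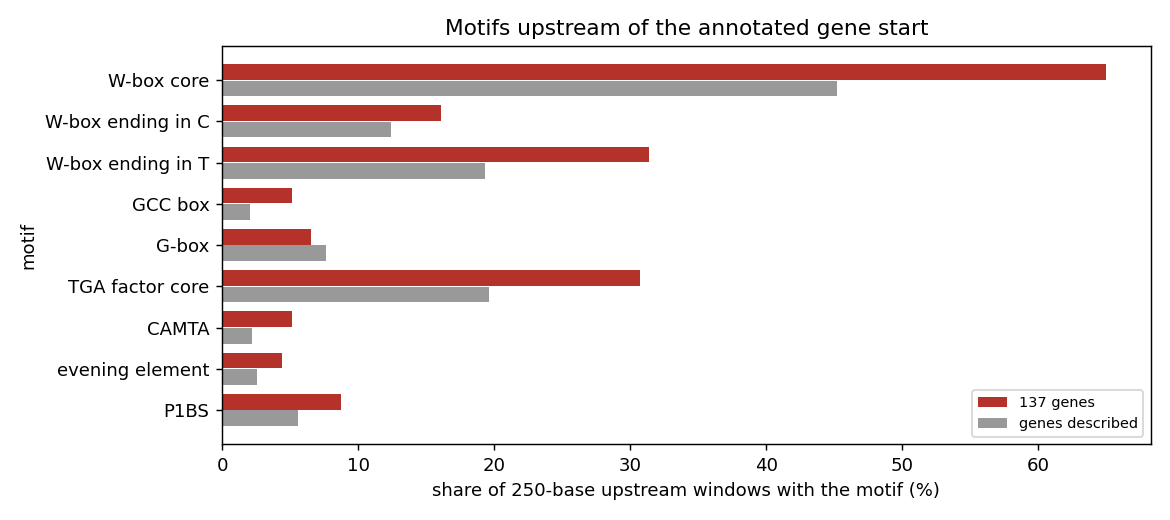
Share of 250-base windows upstream of the annotated gene start that hold each motif on either strand, in percent, for the 137 genes (red) and for all described genes with a window (grey). The W-box core is in 65.0% of the set and 45.2% of described genes, and the G-box is the motif with the smaller share in the set, 6.57% against 7.68%.

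Windows of 4 genes are shown because each stands at an end of the values: GSTU3 has the largest lba1 upf3-1 minus WT difference, CYP81D8 the most W-box cores, and CML37 and RNS1 the highest and the lowest CHX minus mock difference. They are from the TAIR10.1 genome, 5′ to 3′ on the strand of the gene and ending at the base before the annotated start. Capitals mark TTGAC, or GTCAA where the core lies on the opposite strand. The windows lie at chr2:12629641-12629890 (minus strand) for GSTU3, chr4:17571744-17571993 (minus) for CYP81D8, chr5:16943821-16944070 (minus) for CML37 and chr2:873256-873505 (plus) for RNS1.
GSTU3: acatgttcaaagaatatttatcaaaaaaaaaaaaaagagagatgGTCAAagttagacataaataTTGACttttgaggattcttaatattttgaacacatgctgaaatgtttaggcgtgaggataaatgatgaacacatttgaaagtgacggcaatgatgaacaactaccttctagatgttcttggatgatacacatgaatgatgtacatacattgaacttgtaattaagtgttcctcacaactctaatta
CYP81D8: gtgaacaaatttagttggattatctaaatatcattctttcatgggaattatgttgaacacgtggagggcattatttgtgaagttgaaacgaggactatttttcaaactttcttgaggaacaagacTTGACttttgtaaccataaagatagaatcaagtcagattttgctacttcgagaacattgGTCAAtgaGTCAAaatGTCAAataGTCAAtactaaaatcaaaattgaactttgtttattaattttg
CML37: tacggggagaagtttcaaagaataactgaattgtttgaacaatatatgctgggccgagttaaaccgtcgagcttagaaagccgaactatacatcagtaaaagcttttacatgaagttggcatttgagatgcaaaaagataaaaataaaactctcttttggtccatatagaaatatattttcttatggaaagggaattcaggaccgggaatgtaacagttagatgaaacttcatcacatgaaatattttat
RNS1: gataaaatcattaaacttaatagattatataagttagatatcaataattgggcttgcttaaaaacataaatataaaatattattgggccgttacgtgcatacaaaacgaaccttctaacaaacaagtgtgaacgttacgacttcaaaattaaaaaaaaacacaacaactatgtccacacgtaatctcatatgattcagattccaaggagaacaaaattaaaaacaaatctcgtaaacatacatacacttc
GSTU3 has 2 cores, CYP81D8 has 5, and the windows of CML37 and RNS1 have none of these letters. Genes of the set with a higher and a lower level under CHX held the core at close shares, 63.6% of 66 and 68.8% of 48.

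Most of the set was within 2-fold of WT in upf3-1, but a larger share was higher than among all described genes. There, 23 of the 137 genes (16.8%) were higher and 2 (1.46%) lower, against 3.81% and 0.547% of all described genes. Within 2-fold were 112 of the 137, against 13466 of the 14079 described genes. The median difference of the set was 0.30, against 0.05 over all described genes. The WT column also enters both differences that chose the genes. All 137 genes were above their lba1 level in upf3-1, 124 of them by at least 2-fold, against 3.84% of described genes. A total of 132 were below their lba1 upf3-1 level, 123 of them by at least 2-fold, against 16.6%. Since the set was chosen to be low in lba1 and high in lba1 upf3-1, these orders follow largely from the choice.

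TI1, a trypsin inhibitor of the defensin family, had the highest upf3-1 minus WT difference of the set (2.41 ± 0.08). It was at 8.37 RPKM in lba1, 2803 in lba1 upf3-1, 120 in upf3-1, 4.38 with CHX, 38.9 in mock and 22.2 in WT. WRKY18, a regulator of basal immunity, was at 5.65 RPKM in lba1, 112 in lba1 upf3-1, 57.3 in upf3-1, 1255 with CHX, 72.1 in mock and 13.6 in WT, and its upf3-1 minus WT difference was 2.04. Both thus stood below WT in lba1 and above it in upf3-1 and in lba1 upf3-1. The other 6 of the highest 8 were AT1G35210 (2.01), the EF-hand calcium-binding gene AT3G29000 (1.94), the acetyltransferase gene NATA1 (1.90), AT3G48650 (1.89), the ethylene response repressor gene ERF11 (1.85) and the alpha-amylase gene AMY1 (1.73). The 2 genes lower in upf3-1 were ARD3, an enzyme of methionine salvage, and GPT2, a glucose 6-phosphate transporter of plastids. ARD3 was at 0.323 RPKM in lba1, 212 in lba1 upf3-1, 0.511 in upf3-1, 0.535 with CHX, 0.433 in mock and 2.47 in WT, so that it was high in the lba1 upf3-1 column and under 3 RPKM in the others. PR1 followed at −0.99, just inside 2-fold.

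In mock, the 4 h in liquid medium went with higher levels of 72 genes of the set and lower levels of 18, where 14.2% of all described genes were higher and 11.9% lower. The median mock minus WT difference was 1.08 for the set and 0.15 for all described genes, and after median scaling of the columns 67 genes of the set were higher and 19 lower, against backgrounds of 11.9% and 14.3%. Mock values lay between those of lba1 and lba1 upf3-1 for 105 genes, above lba1 upf3-1 for 23 and below lba1 for 9. Since the set was chosen to be low in lba1 and high in lba1 upf3-1, a place between them follows largely from the choice. These positions were not compared with all described genes. CYP81D8, a cytochrome P450, was at 2.73 RPKM in lba1, 173 in lba1 upf3-1, 14 in upf3-1, 399 with CHX, 251 in mock and 7.41 in WT (mock minus WT 4.99). UGT74E2, which glucosylates indole-3-butyric acid, was at 562 RPKM in mock against 18.3 in WT, and ABCC3, a vacuolar ABC transporter, at 585 against 30.8. The neighbouring efflux genes AT2G04050 and DTX1 were at 261 and 146 RPKM in mock, against 7.72 and 4.56 in WT. NRT1.8, a nitrate transporter of the xylem (4.35), the TIR domain gene AT1G57630 (4.28) and PLA2A, a patatin-like lipase (4.15), complete the highest 8.

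The lowest mock minus WT difference of the set was that of PR1, which was at 1.40 RPKM in mock against 113 in WT (−5.90). LURP1, a gene of defence against oomycetes, was at 2.41 RPKM in mock against 27.3 in WT (−3.26), PNP-A at 1.3 against 5.71 (−1.79) and PR2, a beta-1,3-glucanase, at 7.49 against 22.1 (−1.5). AT5G10760, an aspartyl protease (−2.50), AT3G28540, an ATPase (−2.43), the non-coding RNA AT3G15536 (−1.75) and ARD3 (−1.67) were the others of the lowest 8. In the mock column PR1 and LURP1 were thus close to their lba1 levels of 0.922 and 4.07 RPKM.

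With CHX the set came apart into a higher and a lower group. Of the 137 genes 66 were higher than in mock, 48 lower and 23 within 2-fold, where 13.3% of all described genes were higher and 44.1% lower. The median difference was 0.56 for the set and −0.81 for all described genes, and relative to that shift, after median scaling, 71 genes of the set were higher and 37 lower, against backgrounds of 22% and 24.2%. CHX was the highest of the 6 columns for 53 genes of the set, against 17.8% of described genes, and the lowest for 33, against 54.4%. Since the CHX column enters the mean filter, the count was also taken over the 130 genes that reach 5 RPKM without it, and 61 were higher and 48 lower. CHX levels were above those in lba1 upf3-1 for 56 genes and below those in lba1 for 34. These positions depend on the choice of genes low in lba1 and high in lba1 upf3-1, and were not compared with all described genes.

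The genes higher in mock were not all higher again with CHX. Of the 72 genes higher in mock than in WT, 42 were higher with CHX than in mock, 19 were lower and 11 were within 2-fold. Of the 1996 described genes higher in mock, 780 were higher with CHX, 624 lower and 592 within 2-fold. Of the 18 lower in mock, 6 were higher with CHX, 7 were lower and 5 within 2-fold. For described genes lower in mock these counts were 106, 876 and 695. The other 47 divided into 18 higher, 22 lower and 7 within 2-fold. For described genes within 2-fold in mock the counts were 984, 4709 and 4713. Mock is common to both differences, so a high mock value raises the first and lowers the second.

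**Figure D3:**
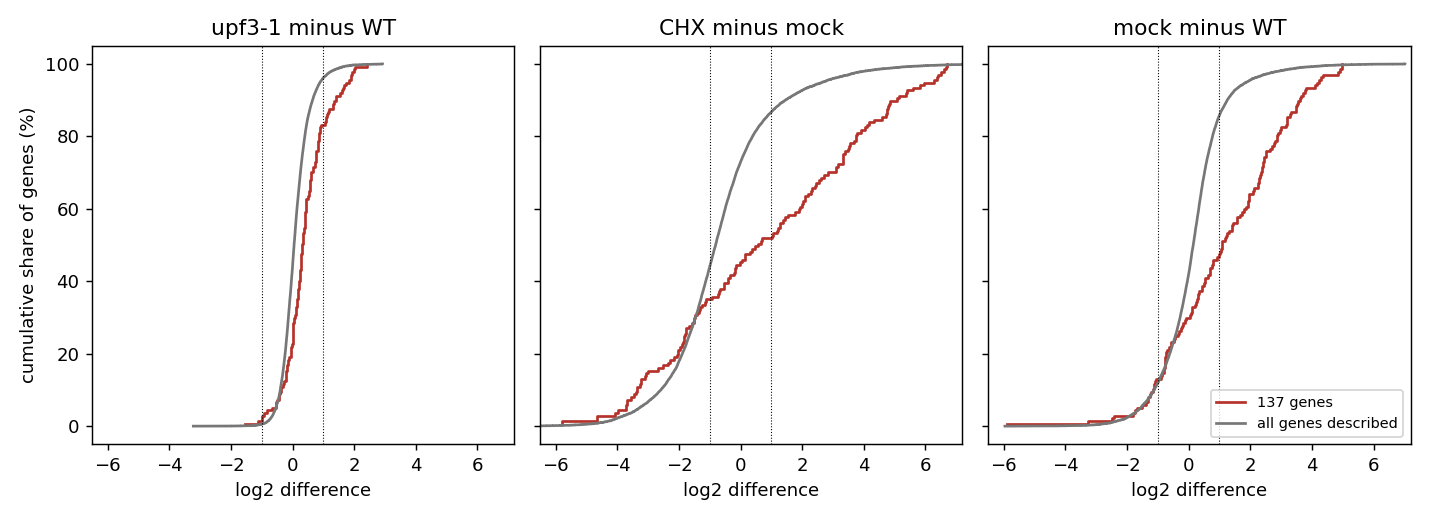
Cumulative share of genes, in percent, by log2 difference for upf3-1 minus WT, CHX minus mock and mock minus WT, for the 137 genes (red) and all 14079 described genes (grey), with dotted lines at 2-fold. The red curve for CHX minus mock crosses the grey one, with 48 genes of the set below the left line and 66 beyond the right line.

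The direction under CHX differed between roles, with regulators mostly higher and defence metabolism mostly lower. Roles were assigned by hand after the values were seen, so the groups are a description and their split can come from the sorting. Median CHX minus mock differences were 4.73 for 10 salicylic acid and immune regulators, 3.90 for 12 transcription factors, 3.90 for 7 calcium genes and 1.93 for 13 immune receptors and kinases. They were 1.60 for 12 genes of transport and energy, −0.55 for 11 of breakdown and recycling, −1.5 for 16 of detoxification, −1.75 for 15 defence proteins and salicylic acid outputs, and −1.89 for 20 genes of defence metabolism, against −0.81 for all described genes. No role median changed sign with median scaling or quantile normalization, but the median of all described genes moved to −0.10 and −0.23. Breakdown and recycling lay above that median as reported and below it with both alternatives, at −0.29 and −0.39. The other role medians kept their side of it. The remaining 21 genes, other or uncharacterised, had a median of 1.01.

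**Figure D4:**
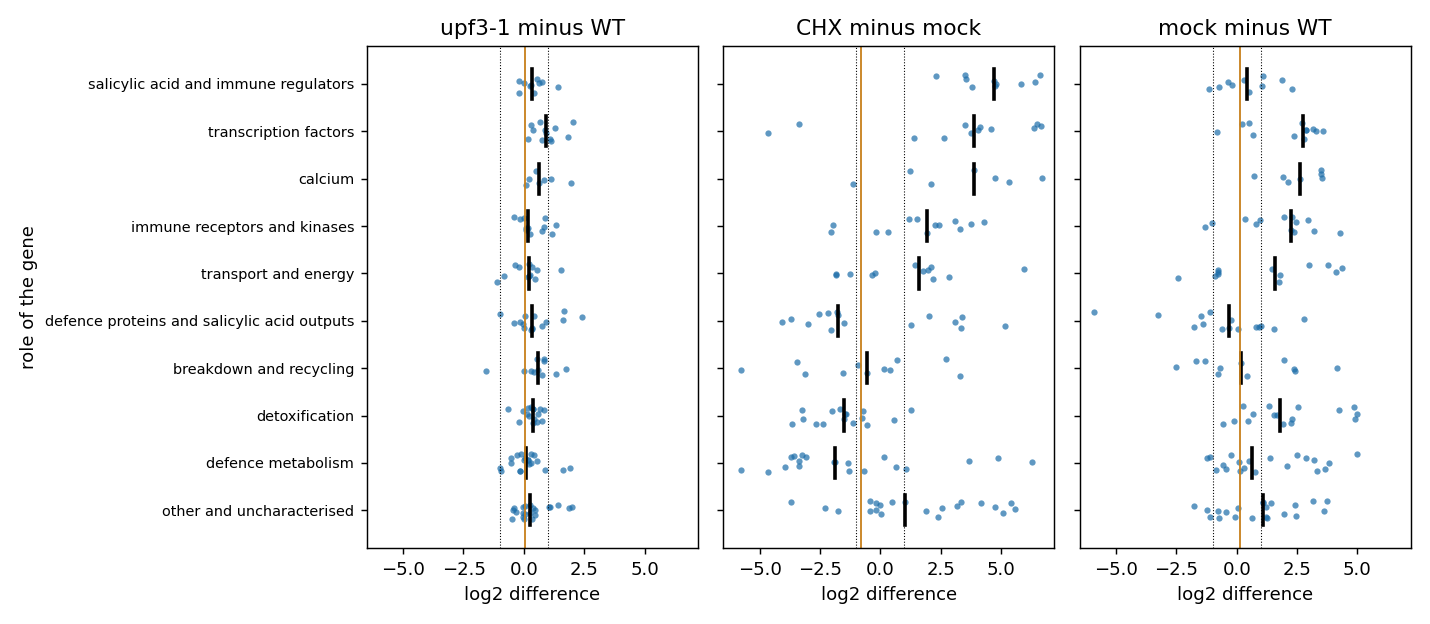
Differences of the 137 genes by role, on the log2(RPKM + 0.5) scale, for upf3-1 minus WT, CHX minus mock and mock minus WT. Each point is a gene, black bars are role medians, the orange line is the median of all described genes and dotted lines mark 2-fold. In the CHX panel the role medians run from 4.73 for salicylic acid and immune regulators to −1.89 for defence metabolism.

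All 10 salicylic acid and immune regulators, a group formed by hand after the values were seen, were higher with CHX than in mock. Among all described genes 13.3% were higher. SARD1, a transcription factor that switches on salicylic acid synthesis, was at 0.508 RPKM in lba1, 38.3 in lba1 upf3-1, 3.09 in upf3-1, 246 with CHX, 2.43 in mock and 1.85 in WT (CHX minus mock 6.39 ± 0.10). Its relative CBP60G was at 1.31 RPKM in lba1, 52.7 in lba1 upf3-1, 10.2 in upf3-1, 746 with CHX, 12.8 in mock and 5.79 in WT (5.81 ± 0.05). Both were several times higher with CHX than in lba1 upf3-1. PBS3, the enzyme that joins isochorismate to glutamate on the way to salicylic acid, was at 1.26 RPKM in lba1, 65.9 in lba1 upf3-1, 3.95 in upf3-1, 93.4 with CHX, 3.00 in mock and 3.95 in WT. FMO1, which makes the mobile immune signal N-hydroxypipecolic acid, was at 0.469 RPKM in lba1, 87.4 in lba1 upf3-1, 2.39 in upf3-1, 23.0 with CHX, 1.5 in mock and 2.84 in WT. Unlike SARD1, FMO1 was higher in lba1 upf3-1 than with CHX. NIMIN1, a partner of NPR1, was at 10.2 RPKM with CHX against 0.448 in mock. BAP2, an inhibitor of cell death, was at 254 RPKM with CHX against 2.1 in mock (6.61 ± 0.18). The other 4 are the ubiquitin ligase genes CNI1 (3.78) and RING1 (2.32), the U-box gene PUB54 (4.81) and XBAT34 (4.71). In upf3-1 only CNI1 of these 10 was higher than in WT (1.43), against 3.81% of all described genes.

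Among the 12 transcription factors, 10 (83.3%) were higher and 2 (16.7%) lower with CHX, against 13.3% and 44.1% of all described genes. Higher in upf3-1 were 5 (41.7%), against 3.81%. ZAT7, a C2H2 zinc finger factor, was at 0.868 RPKM in lba1, 24.1 in lba1 upf3-1, 6.03 in upf3-1, 2241 with CHX, 21.8 in mock and 2.51 in WT. ZAT10, a related repressor of stress responses, was at 4.64 RPKM in lba1, 56.4 in lba1 upf3-1, 46.3 in upf3-1, 2460 with CHX, 148 in mock and 21.4 in WT. It had the highest CHX level of the set. WRKY46 was at 1.46 RPKM in lba1, 41.2 in lba1 upf3-1, 15.9 in upf3-1, 880 with CHX, 10.1 in mock and 6.12 in WT. WRKY33, which activates camalexin genes, was at 9.96 RPKM in lba1, 88.8 in lba1 upf3-1, 61.4 in upf3-1, 1474 with CHX, 239 in mock and 36.5 in WT. WRKY70, which favours salicylic acid over jasmonate responses, was at 11.1 RPKM in lba1, 121 in lba1 upf3-1, 41.9 in upf3-1, 285 with CHX, 20.7 in mock and 36.6 in WT. In mock WRKY33 was higher than in WT (2.69), and WRKY70 was within 2-fold (−0.80). ERF11 was at 469 RPKM with CHX against 4.69 in mock, ZAT12 at 736 against 64.3, ZAT6 at 122 against 46.4 and the zinc finger gene AT3G46080 at 1426 against 58.6. The 2 factors lower with CHX were WRKY45 and the bHLH gene AT1G10585. WRKY45, which activates phosphate transport, was at 4.23 RPKM in lba1, 132 in lba1 upf3-1, 12.6 in upf3-1, 0.903 with CHX, 13.9 in mock and 9.48 in WT. AT1G10585 was at 1.00 RPKM in lba1, 103 in lba1 upf3-1, 8.02 in upf3-1, 1.22 with CHX, 43.3 in mock and 3.97 in WT.

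The 7 calcium genes included 6 (85.7%) higher and 1 (14.3%) lower with CHX, against 13.3% and 44.1% of all described genes. In mock 6 (85.7%) were higher than in WT, against 14.2%. CML37, a calmodulin-like calcium sensor, had the largest CHX minus mock difference of the set (6.71 ± 0.07). It was at 0.436 RPKM in lba1, 18.8 in lba1 upf3-1, 4.46 in upf3-1, 1451 with CHX, 13.4 in mock and 1.74 in WT. AT3G29000 was at 1619 RPKM with CHX against 59.5 in mock, and the calcium pump gene AT3G22910 at 1307 against 31.5. CML47, another calmodulin-like gene, was at 20.01 RPKM with CHX against 44.9 in mock (−1.15, or −0.39 after median scaling, within 2-fold), and it was at 256 RPKM in lba1 upf3-1, 3.40 in lba1 and 11.6 in upf3-1, against 9.84 in WT. CAX3, a vacuolar calcium exchanger, was the only calcium gene within 2-fold of WT in mock (0.70).

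Of the 13 immune receptors and kinases 9 (69.2%) were higher and 2 (15.4%) lower with CHX, against 13.3% and 44.1% of all described genes. HR4, a homologue of the mildew resistance protein RPW8, was at 6.63 RPKM in lba1, 399 in lba1 upf3-1, 43.5 in upf3-1, 369 with CHX, 127 in mock and 24 in WT. AT5G41750, a receptor of the TIR-NBS-LRR class, was at 652 RPKM with CHX against 32.2 in mock, and at 31.7 RPKM in lba1 upf3-1, 1.06 in lba1 and 7.66 in upf3-1 against 3.11 in WT. LYK5, the main receptor for chitin, was at 105 RPKM with CHX against 7.40 in mock (3.74), and FRK1, a marker of responses to bacterial flagellin, was at 3.86 against 3.00 (0.32). MPK11, a MAP kinase gene induced by bacterial patterns, was at 67.2 RPKM with CHX against 7.37 in mock. WAK3, a wall-associated kinase, and AT1G35710, a leucine-rich repeat kinase, were lower with CHX at −1.97 and −2.06.

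Defence proteins and salicylic acid outputs had 9 genes lower and 6 higher with CHX. PR1 rested on 4 reads with CHX, an exact Poisson interval of 0.0142 to 0.134 RPKM, against 1.40 RPKM in mock. LURP1 rested on 1 read with CHX, an interval of 0.000134 to 0.0294 RPKM, against 2.41 RPKM in mock. PR2 was at 3.52 RPKM in lba1, 189 in lba1 upf3-1, 41.8 in upf3-1, 68.2 with CHX, 7.49 in mock and 22.1 in WT. PR2 and PNP-A, which was at 17.7 RPKM with CHX against 1.3 in mock, were higher with CHX, whereas PR5, a thaumatin-like protein, was at 1.57 against 6.48. EARLI1, a lipid transfer protein relative, was at 54.7 RPKM in lba1, 1387 in lba1 upf3-1, 213 in upf3-1, 4.31 with CHX, 80.9 in mock and 125 in WT. CHI, a chitinase, was at 744 RPKM in lba1 upf3-1, 3.56 in lba1 and 16.0 in upf3-1 against 12.5 in WT, and at 0.616 with CHX against 4.46 in mock. Secreted proteins thus stood on both sides, with AT4G23610 (5.15), AT3G04640 (3.40), AGP5 (2.03) and AT4G22470 (1.27) also higher with CHX.

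Of the 16 detoxification genes, 11 (68.8%) were higher in mock than in WT, none lower and 5 within 2-fold. Among all described genes 14.2% were higher and 11.9% lower. With CHX 11 (68.8%) were lower than in mock and 1 (6.25%) higher, against 44.1% and 13.3% of all described genes. After median scaling 6 were lower and 2 higher, against 24.2% and 22%. GSTF7 was at 26.6 RPKM in lba1, 2827 in lba1 upf3-1, 85.6 in upf3-1, 78.0 with CHX, 224 in mock and 58.7 in WT. Its neighbour GSTF6, which acts in camalexin synthesis, was at 26.2 RPKM in lba1, 1866 in lba1 upf3-1, 103 in upf3-1, 76.3 with CHX, 311 in mock and 105 in WT. GSTF2 was at 73.2 RPKM in lba1, 2381 in lba1 upf3-1, 186 in upf3-1, 29.0 with CHX, 275 in mock and 170 in WT. These phi class glutathione transferases were the most abundant enzymes of the set. All of the 3 were within 2-fold of WT in upf3-1, as were the other 13 genes of the group and 13466 of the 14079 described genes. GSTU3 was the gene higher with CHX (1.29). The levels of GSTF6 and GSTF7 are uncertain relative to each other, because they are 92.6% identical over 892 bases and reads can be divided between them.

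Defence metabolism had 13 of 20 genes lower with CHX and 4 higher. PAD3, the cytochrome P450 of the last step to the phytoalexin camalexin, was at 2.78 RPKM in lba1, 128 in lba1 upf3-1, 7.23 in upf3-1, 2.04 with CHX, 139 in mock and 10.6 in WT. It was thus as high in mock as in lba1 upf3-1 and lower with CHX by −5.78 ± 0.13. CYP71A12, a P450 of indole defence compounds, was at 29.7 RPKM with CHX against 26.7 in mock and at 207 RPKM in lba1 upf3-1 against 5.95 in WT. The berberine enzyme genes AT1G26380 and AT1G26390, which lie side by side, differed in mock, at 41.8 and 1.81 RPKM against 2.51 and 4.50 in WT. The 4 genes higher with CHX were TAT3, LOX4, ACS7 and CYP82C2. TAT3, a tyrosine aminotransferase induced by jasmonate, was at 0.154 RPKM in lba1, 25.4 in lba1 upf3-1, 6.03 in upf3-1, 305 with CHX, 3.39 in mock and 4.86 in WT. LOX4, a lipoxygenase of jasmonate synthesis, was at 0.594 RPKM in lba1, 8.66 in lba1 upf3-1, 10.5 in upf3-1, 743 with CHX, 25.1 in mock and 3.03 in WT. LOX4 was 1 of the 5 genes of the set that were not below their lba1 upf3-1 level in upf3-1. ACS7, which makes the precursor of ethylene, was at 258 RPKM with CHX against 19.5 in mock.

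Of the 11 genes of breakdown and recycling 4 (36.4%) were lower and 2 (18.2%) higher with CHX, against 44.1% and 13.3% of all described genes. After median scaling 3 were lower and 3 higher, against 24.2% and 22%, so that the smaller share lower did not hold. RNS1, a secreted ribonuclease induced by wounding and low phosphate, was the gene with the lowest CHX minus mock difference of the set (−5.79 ± 0.15). It was at 0.545 RPKM in lba1, 32.3 in lba1 upf3-1, 14.5 in upf3-1, 0.073 with CHX, 31.2 in mock and 5.49 in WT. SAG13, a senescence-associated dehydrogenase, was at 3.29 RPKM in lba1, 1106 in lba1 upf3-1, 24.1 in upf3-1, 0.313 with CHX, 8.5 in mock and 14.1 in WT. DIN2, a beta-glucosidase induced in darkness, was at 1.23 RPKM in lba1, 339 in lba1 upf3-1, 4.36 in upf3-1, 0.072 with CHX, 4.42 in mock and 3.12 in WT. SAG13 and DIN2 were thus abundant in the lba1 upf3-1 column and under 1 RPKM with CHX. SAG14, a blue copper-binding protein, was higher with CHX, at 923 RPKM against 91.8 in mock, and at 458 RPKM in lba1 upf3-1.

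Transport and energy genes were led by NRT1.8, at 0.800 RPKM in lba1, 170 in lba1 upf3-1, 9.21 in upf3-1, 287 with CHX, 67.4 in mock and 2.82 in WT. AOX1D, an alternative oxidase of mitochondria, was at 0.187 RPKM in lba1, 85.2 in lba1 upf3-1, 2.72 in upf3-1, 43.0 with CHX, 49.6 in mock and 2.39 in WT. FLOT1, a membrane flotillin, was at 221 RPKM with CHX against 64.7 in mock, and its neighbour AT5G25260 at 62.0 against 8.24. AT5G52760, annotated as a copper transport protein, had the largest CHX minus mock difference of this group (5.95), at 804 RPKM against 12.5 in mock. GPT2 was at 3.16 RPKM in lba1, 99.4 in lba1 upf3-1, 12.7 in upf3-1, 257 with CHX, 94.7 in mock and 28.1 in WT. Among the uncharacterised genes, AT3G48650, a transcribed pseudogene, was at 0.494 RPKM in lba1, 170 in lba1 upf3-1, 7.97 in upf3-1, 232 with CHX, 4.34 in mock and 1.79 in WT. The non-coding RNA AT3G15536 was listed at 0 with CHX, where 3 reads would give 0.0713 RPKM, and was at 40.1 RPKM in lba1 upf3-1, 0.401 in lba1 and 1.88 in upf3-1 against 1.38 in WT.

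**Figure D5:**
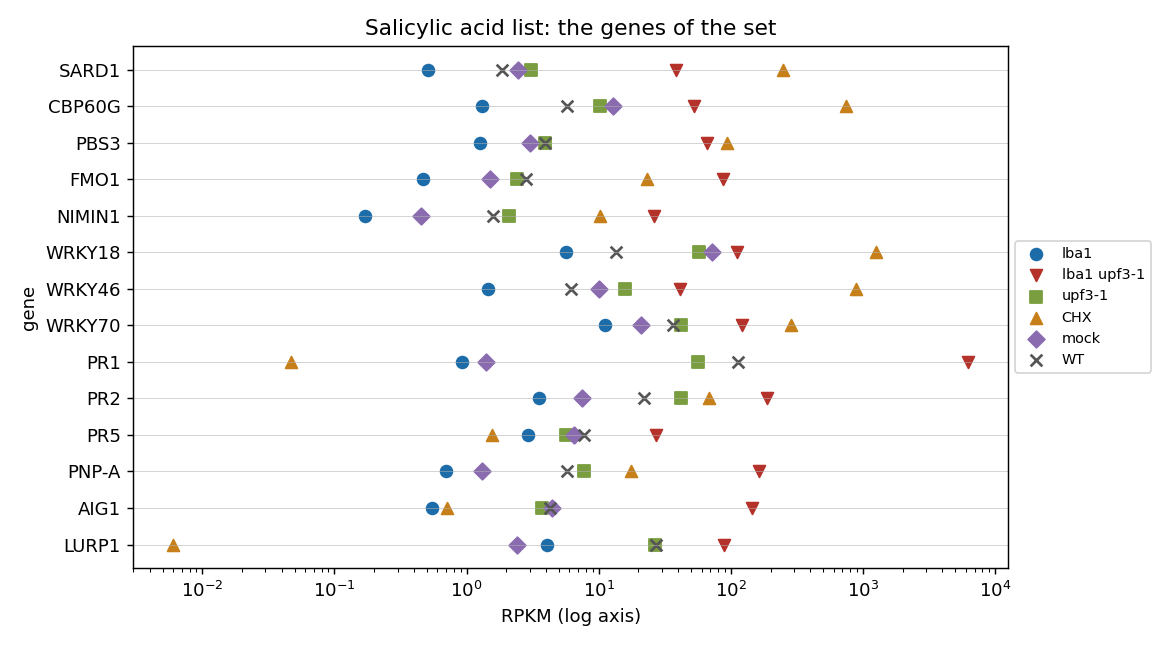
Level of the 14 salicylic acid list genes of the set in the 6 columns, on a log axis of RPKM. SARD1, CBP60G and the WRKY genes have CHX (orange triangles) to the right of mock (purple diamonds), while PR1, PR5, AIG1 and LURP1 have CHX to the left of it.

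A list of 39 salicylic acid defence genes had 36 described, and 14 of these belong to the set. Of the 36, 23 (63.9%) were higher and 8 (22.2%) lower with CHX than in mock (median 2.56), against 13.3% and 44.1% of described genes. In mock 7 (19.4%) were higher and 7 (19.4%) lower than in WT (median −0.10), against 14.2% and 11.9%. Against WT, 3 (8.33%) were higher and none lower in upf3-1 (median 0.21), where the shares of described genes were 3.81% and 0.547%. Outside the set, 15 genes of the list were higher in lba1 upf3-1 without being lower in lba1, and 3 were lower in lba1 without being higher in lba1 upf3-1. ICS1, the enzyme that makes isochorismate for salicylic acid, was in the first of these groups, at 4.09 RPKM in lba1, 19.4 in lba1 upf3-1, 6.44 in upf3-1, 48.4 with CHX, 6.48 in mock and 5.79 in WT. ACD6, an ankyrin protein that promotes salicylic acid defence, was in the second, at 7.03 RPKM in lba1, 1.58 in lba1 upf3-1, 15.6 in upf3-1, 0.249 with CHX, 11.8 in mock and 20.2 in WT. The lba1 minus WT difference of ICS1 was −0.45, which placed it outside the set.

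Other lists contributed fewer genes. The 34 described early stress and wound transcription factors held 6 genes of the set (ZAT6, ZAT7, ZAT10, ZAT12, ERF11 and WRKY33). With CHX 29 of the 34 (85.3%) were higher and 2 (5.88%) lower, against 13.3% and 44.1% of all described genes. In mock 24 (70.6%) were higher and none lower, against 14.2% and 11.9%. Against WT, 10 (29.4%) were higher and none lower in upf3-1, where the shares of described genes were 3.81% and 0.547%. Of 26 jasmonate genes 3 belonged to the set (LOX4, TAT3 and NATA1). With CHX 18 of the 26 (69.2%) were higher and 4 (15.4%) lower, against the same 13.3% and 44.1%. Of 13 camalexin and indole defence genes 4 belonged to it (PAD3, CYP71A12, GSTF6 and GSTF7). In mock 9 of the 13 (69.2%) were higher and none lower, against the same 14.2% and 11.9%. With CHX none of the 13 was higher and 7 (53.8%) were lower, against 13.3% and 44.1% of all described genes. After median scaling 3 were higher and 6 lower, against 22% and 24.2%. The detoxification list had 25 described genes and 4 in the set, with 15 higher and 1 lower in mock. With CHX 5 of the 25 were higher and 14 lower, but 8 and 8 after median scaling, so that no lean of this list holds under both scalings. Among 22 genes of pattern-triggered immunity the 2 in the set were FRK1 and LYK5, among 11 calcium and touch genes CML37 and CML47, among 10 senescence genes SAG13 and SAG14, and among 10 mitochondrial stress genes AOX1D. The lists of NLR receptors, cysteine-rich receptor-like kinases, iron, NMD and exon junction complex, and phosphate starvation had no gene in the set. These lists do not cover their families, since the set does hold the cysteine-rich receptor-like kinase gene CRK12 and the TIR-NBS-LRR gene AT5G41750. Of the 14 described phosphate genes 8 (57.1%) were lower in lba1, against 1.93% of all described genes.

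Annotation words describe the same genes as the roles and are not separate evidence for them. The word WRKY was in the product names of 5 of the 137 genes (3.65%), against 0.25% of the 14013 described genes found in the annotation. Glutathione S-transferase was in 5 (3.65% against 0.314%), calcium-binding or calmodulin in 7 (5.11% against 0.649%), cytochrome P450 in 6 (4.38% against 0.749%) and a TIR domain in 4 (2.92% against 0.478%). Defense response was noted for 13 genes (9.49% against 2.33%), and translation for none (3.70% of described genes). Kinase was in 6.57% of the set and 5.61% of described genes. Protein-coding genes made up 134 of the 137, with 1 non-coding RNA and 2 transcribed pseudogenes, and median exon length was 1526 bases against 1763.

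Several of the genes are neighbours. In 15 pairs, with 30 of the 137 genes, the partners lay within 10 kb of each other, 12 of them on the same strand, among them GSTF7 and GSTF6, GSTU4 and GSTU3, AT3G46080 and ZAT7, DTX1 and AT2G04050, FLOT1 and AT5G25260, and EARLI1 and AT4G12490. Neighbours are not independent examples, and 17 of the 137 genes have a locus elsewhere that is at least 90% identical over at least 100 bases, so reads may have been divided between copies. For AT2G36770 and AT2G36780, which adjoin and are 90.4% identical over 1578 bases, CHX minus mock was −1.43 and −1.66. The library kit does not mark strand, and 24 of the genes share exon bases with another locus, 7 of them at least 20%: AT4G23610 (88.2%), AT4G22470 (87.7%), AT5G39670 (68.7%), GSTF2 (60.5%), AT4G12490 (35.9%), LHT7 (22.2%) and AT5G25260 (20.1%). Values of these 7 could include reads of the overlapping locus.

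The genes that met only 1 side of the choice are set beside the 137 by their counts, without a test. The 135 genes lower in lba1 but not higher in lba1 upf3-1 had 35 higher and 35 lower in mock (median −0.13), against 72 and 18 of the 137. With CHX they had 58 higher and 49 lower (median 0.36), close to the 66 and 48 of the set. In upf3-1 they had 13 higher and 11 lower (median 0.06). The 2968 genes higher in lba1 upf3-1 but not lower in lba1 had 1001 higher and 94 lower in mock (median 0.56), and 365 higher and 1 lower in upf3-1 (median 0.39). With CHX 740 of these 2968 (24.9%) were higher and 957 (32.2%) lower, with a median of −0.29, where 13.3% of all described genes were higher and 44.1% lower. After median scaling that order turned round, to 1098 higher and 553 lower with a median of 0.42, and quantile normalization gave a median of 0.23. Over all described genes median scaling gave 22% higher and 24.2% lower with a median of −0.10. Relative to all described genes the 2968 thus leaned higher both before and after median scaling. All of these differences share the WT or the mock column with one another.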

How the data were processed

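RNA from whole seedlings was sequenced in 12 libraries, 2 in each of 6 groups. The authors deposited RPKM values for 33602 loci, 1 column per group, built on TAIR10 according to the submitters' processing notes. Not given in the sources used here are aligner, counting rules, gene lengths and how 2 libraries became 1 column. Names, neighbours, overlaps and sequence came from the TAIR10.1 annotation and genome, in which all 137 genes were found. The file holds no coordinates.

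From the deposited values, differences of log2(RPKM + 0.5) were computed with python 3.11.15, pandas 2.3.3 and numpy 2.4.6 over the 14079 genes that averaged 5 RPKM or more. Depth was estimated from the steps of low values at 542 transfer RNA loci. Of the 82 to 111 values per column that lay at 8 reads or fewer, 95.7% to 98.1% were whole within 0.05 of a read. Counting half-widths (95%) and exact Poisson intervals (scipy 1.17.1) cover counting error only. Over the 137 genes the half-width had a median of 0.13 for upf3-1 minus WT, 0.09 for CHX minus mock and 0.12 for mock minus WT. Near-identical loci were found with blastn 2.17.0. The limma fit planned for 1 column per library could not be run, and the computation was tested on simulated data.

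The genes and lists were chosen with earlier results of these data known. Named genes were the 12 with the largest lba1 upf3-1 minus lba1 difference, the 8 highest and 8 lowest of upf3-1 minus WT, CHX minus mock and mock minus WT, the 12 most abundant, the 3 on each side of each threshold, members of the lists and up to 6 of each annotation class. Some were left out for length. Others named by role, and the roles, were chosen after their values were seen. Alternatives were other pseudocounts, filters, scalings, folds and gene classes. A further upstream window is not reported here.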

Additional observations from a re-analysis of the deposited data

How the results depend on the processing

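No alternative turned the sign of a median of the set. The median CHX minus mock difference depended most on the processing. It was 0.56 as reported, 0.36 with a pseudocount of 1, 0.43 with a mean of at least 1 RPKM or no filter, and 0.51 for protein-coding loci. It was 1.25 with a mean of at least 10 RPKM, 1.23 with median scaling, 1.02 with quantile normalization, 0.99 at 1.5-fold, 1.23 at 3-fold and 1.01 for loci with no exon base under another locus. The medians ran from 0.21 to 0.41 for upf3-1 minus WT and from 0.79 to 1.69 for mock minus WT. The size of the set follows its thresholds, and genes low in lba1 or CHX depend on the pseudocount. With a pseudocount of 0.1 the set had 212 genes, with 42 higher and 6 lower in upf3-1 (median 0.41), 126 higher with CHX (median 1.97) and 130 higher in mock. With a pseudocount of 1 it had 102 genes, 13 of them higher in upf3-1 and 11 lower in mock. Median scaling gave 171 genes and quantile normalization 193, with 133 of the 137 kept in each and 4 lower in upf3-1 in each. At 1.5-fold the set had 365 genes, with 102 higher and 14 lower in upf3-1, 194 and 126 with CHX, and 232 and 55 in mock. At 3-fold it had 48 genes, with 1 higher and 0 lower in upf3-1 (median 0.21), 21 and 16 with CHX, and 20 and 4 in mock. A mean of at least 1 RPKM, or no filter, gave 151 genes, a mean of at least 10 RPKM 118, protein-coding loci 134 and loci with no exon base under another locus 113.

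No paired analysis was possible because the file has 1 column per group, and its columns carry no replicate number. For the same reason no fit without each replicate in turn and no replicate block were run. Depth was not what limited most values, since 12 of the 137 genes had fewer than 20 reads in lba1 and 9 with CHX. Variation between seedling batches, which no value here measures, was not tested.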

Other observations

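The opposite combination, higher in lba1 and lower in lba1 upf3-1, held 83 described genes, a set looked at after the data were seen, of which 59 were still higher in lba1 after median scaling. Their median differences by that choice were 1.3 for lba1 minus WT and −2.49 for lba1 upf3-1 minus WT. In upf3-1, 22 of the 83 (26.5%) were higher than WT and none lower (median 0.71), against 3.81% and 0.547% of all described genes. With CHX 12 (14.5%) were higher and 45 (54.2%) lower than in mock (median −1.10), against 13.3% and 44.1% of all described genes (median −0.81). After median scaling 20 were higher and 33 lower (median −0.40), against 22% and 24.2% (median −0.10). In mock 18 (21.7%) were higher and 23 (27.7%) lower than in WT (median −0.20), against 14.2% and 11.9%. Genes of light harvesting were among them. Of the 11 leaf photosynthesis markers 3 were higher and none lower in lba1, but 6 lay below their WT level (median −0.34). After median scaling 1 of these markers was higher and 2 were lower in lba1. LHCB1.2, a chlorophyll-binding protein of photosystem II, was at 1656 RPKM in lba1, 28.6 in lba1 upf3-1, 1505 in upf3-1, 127 with CHX, 1009 in mock and 674 in WT. LHCA1, its counterpart in photosystem I, was at 1402 RPKM in lba1, 25.3 in lba1 upf3-1, 1231 in upf3-1, 144 with CHX, 523 in mock and 647 in WT. GASA6, a small peptide gene regulated by gibberellin, was at 534 RPKM in lba1, 2.50 in lba1 upf3-1, 247 in upf3-1, 3.37 with CHX, 37.0 in mock and 247 in WT. LHCA1 and GASA6 lie near the threshold in lba1 (lba1 minus WT 1.12 and 1.11). Median scaling took the median of the 83 from 1.3 to 1.14, and a shift of that size takes both genes below 2-fold. These columns again have no replicate check.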
